A study of Homo sapiens with 3 samples.

Results

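Clustered histone genes were taken as every row of the deposited expression table whose gene name starts with HIST1H, HIST2H, HIST3H or HIST4H, leaving out names that end in PS and a digit. This gave 70 of 35805 rows, which hold 69 gene IDs because HIST2H2AA4 has a row on each strand. The annotation calls all 70 protein-coding. By class they are 6 rows of the linker histone H1, 17 of H2A, 18 of H2B, 14 of H3 and 15 of H4. The RNA came from Ishikawa, a cell line established from a human endometrial adenocarcinoma. The CLDN6 group has 2 libraries from cells that overexpressed CLDN6, a tight-junction protein, after a lentiviral vector was added. The label calls this overexpression transient. The WT group is 1 library from untreated cells. No library from cells with an empty vector was analysed here, so effects of the vector and of CLDN6 cannot be told apart. The comparison asks which genes differ in cells with added CLDN6.

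Histone proteins package DNA: H2A, H2B, H3 and H4 form the core of the nucleosome, and H1 binds the DNA between cores. Most clustered genes are switched on in S phase, when new DNA has to be packaged, and NPAT drives their transcription. Their mRNAs have no poly(A) tail and end in a short stem-loop, which SLBP binds while U7 snRNA and its protein partners direct the cleavage. A few clustered genes are known to make longer, polyadenylated mRNAs as well, mainly in cells that have stopped dividing or are differentiating. In a library made from polyadenylated RNA only the second kind is well captured. The labels give total RNA as the molecule and do not say whether the libraries selected poly(A) tails or removed ribosomal RNA.

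The stem-loop is shown for 6 members because it decides which 3' end an mRNA can have. Each line gives the 16-base stem-loop in capitals with 5 bases on each side, read 5′ to 3′ in a GENCODE 29 transcript.
HIST1H2AC: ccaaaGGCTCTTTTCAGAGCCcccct
HIST2H2BE: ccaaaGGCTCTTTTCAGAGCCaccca
HIST1H2BD: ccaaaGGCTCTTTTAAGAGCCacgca
HIST1H2AG: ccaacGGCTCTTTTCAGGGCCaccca
HIST1H4J: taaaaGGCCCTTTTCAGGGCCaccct
HIST4H4: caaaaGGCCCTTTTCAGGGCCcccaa
The stem has 6 base pairs and the loop 4 bases, and at most 1 G-T pair was allowed. The 16 bases also had to begin with GG and end with CC, and the loop to begin with TT. A stem-loop of this form was found in a transcript of 30 of the 69 member genes, against 274 of 19684 coding genes of the annotation (1.39%). Many members are annotated by their coding part alone and so cannot show it. The HIST1H1C model, of 642 bases, is such a case, and none of the 6 H1 genes had a match. In HIST1H2AC the annotated transcript runs on for 1114 bases past the stem-loop, in HIST2H2BE for 1729 and in HIST1H2AG for 1761. These are models of the longer, read-through kind of mRNA. In HIST1H2BD a 496-base transcript ends 39 bases after the stem-loop, while the 789-base transcript lacks it. The HIST1H4J model ends 6 bases after it.

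Promoter windows, from 250 bases before to 50 after each start, were matched for 63 members in RefSeq (GRCh38.p14). They were searched on both strands for CCAAT, for the octamer ATTTGCAT and for TATAAA, none of which contains another. CCAAT was in 53 of the 63 windows (84.1%), against 35.7% of 27305 windows of all genes. The octamer, known as the binding motif of POU2F1 in H2B promoters, was in 25 (39.7%), against 1.80%. TATAAA was in 42 (66.7%), against 11.95%. By class, the octamer was in 11 of 15 H2A and 14 of 18 H2B windows and in none of the 6 H1, 11 H3 and 13 H4 windows. Windows of H2A and H2B genes that start back to back can overlap, and a site in the overlap counts for both genes. These counts are therefore not of separate promoters. CCAAT was in every H1, H2A, H2B and H3 window and in 3 of 13 H4 windows. The octamer was in 15 of 39 windows of members with reads and 10 of 24 without, TATAAA in 26 of 39 and 16 of 24, and CCAAT in 31 of 39 (79.5%) and 22 of 24 (91.7%). A match of letters is a description, not a site of binding.

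These 4 windows are printed because the results below turn on them, with the motifs in capitals on either strand. The first 2 lie between an H2A and an H2B gene that start back to back, so each serves a pair. HIST1H2AG (chr6:27132793-27133092, plus strand) faces HIST1H2BJ, and HIST1H2AC (chr6:26123922-26124221, plus strand) faces HIST1H2BC. HIST1H1C (chr6:26056421-26056720, minus strand) holds the member with the most reads. HIST4H4 (chr12:14771082-14771381, minus strand) stands alone on chromosome 12.
HIST1H2AG: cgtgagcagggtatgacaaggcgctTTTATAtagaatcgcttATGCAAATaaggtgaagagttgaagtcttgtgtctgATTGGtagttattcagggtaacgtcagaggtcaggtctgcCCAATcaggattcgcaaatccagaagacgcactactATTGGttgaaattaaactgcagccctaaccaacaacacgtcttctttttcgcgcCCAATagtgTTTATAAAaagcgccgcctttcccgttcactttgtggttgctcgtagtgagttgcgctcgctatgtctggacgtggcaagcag
HIST1H2AC: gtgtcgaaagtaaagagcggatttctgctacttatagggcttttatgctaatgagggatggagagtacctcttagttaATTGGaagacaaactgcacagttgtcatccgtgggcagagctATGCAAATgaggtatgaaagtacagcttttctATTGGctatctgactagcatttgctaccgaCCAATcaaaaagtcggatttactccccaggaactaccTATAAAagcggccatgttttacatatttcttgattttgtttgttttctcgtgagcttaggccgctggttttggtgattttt
HIST1H1C: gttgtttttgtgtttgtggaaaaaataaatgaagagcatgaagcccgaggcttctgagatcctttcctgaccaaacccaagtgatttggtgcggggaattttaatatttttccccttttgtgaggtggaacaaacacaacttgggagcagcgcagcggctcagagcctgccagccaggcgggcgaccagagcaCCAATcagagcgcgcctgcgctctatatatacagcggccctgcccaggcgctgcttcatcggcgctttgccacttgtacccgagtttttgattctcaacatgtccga
HIST4H4: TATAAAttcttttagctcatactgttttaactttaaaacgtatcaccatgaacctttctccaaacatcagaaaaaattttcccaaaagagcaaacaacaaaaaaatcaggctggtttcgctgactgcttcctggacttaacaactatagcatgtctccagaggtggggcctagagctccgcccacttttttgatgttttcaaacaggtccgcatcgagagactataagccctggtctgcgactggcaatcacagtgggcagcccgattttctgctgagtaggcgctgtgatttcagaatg
The shared windows of the H2A and H2B pairs carry the octamer, CCAAT on both strands and TATAAA. The HIST1H1C window has CCAAT alone, and the HIST4H4 window has TATAAA alone, at its far end.

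Values are given in the order CLDN6 replicate 1, CLDN6 replicate 2, WT. The libraries held 71088867, 65755120 and 67843384 reads, of which 68.1%, 68.1% and 68.2% lay in listed genes. Levels are RPM, the reads of a gene for every 1000000 reads of its library, with no further scaling between libraries. No read allows a level of up to 0.0422, 0.0456 and 0.0442 RPM, taken as 3 reads. Intervals are exact 95% Poisson or binomial intervals of the reads, and like this limit they cover counting error only, since PCR copies are not independent molecules. CLDN6 itself stood at 354, 413 and 0.236 RPM. The CLDN6 libraries stand apart from each other: of 14509 genes whose mean reached 1 RPM, 36.2% were at least 2-fold higher in replicate 1 than in replicate 2 and 7.15% at least 2-fold lower. Nothing in the labels ties the libraries to separate cultures, so a p-value measures the spread between these libraries alone, and that spread may be technical. Epithelial markers summed to 6357, 6531 and 6238 RPM over 8 of 8 tested genes, most of it from KRT8 and KRT18. Among them CDH1, at 293, 116 and 235 RPM, and ESR1, at 99.8, 17.2 and 71.7 RPM, were at least 2-fold below WT in replicate 2 (18.4% of all genes). Of 6 fibroblast markers, PDGFRB, LUM and DCN had no read, 5 were below a mean of 1 RPM and COL1A1 stood at 16.3, 48.6 and 20.8 RPM. PECAM1 had no read, CDH5 had 0, 0.0456 and 0 RPM and VWF 16.3, 12.5 and 9.99 RPM, and all 4 leukocyte markers were below a mean of 1 RPM, summing to 1.32, 0.639 and 1.16 RPM.

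The clustered histone genes were sparsely read. All 70 rows together had 4125, 5082 and 4581 reads, or 58.0 (56.3 to 59.8), 77.3 (75.2 to 79.4) and 67.5 (65.6 to 69.5) RPM. WT lay between the CLDN6 libraries, and the 3 intervals did not overlap. The ratio to WT was 0.859 (0.824 to 0.896) in replicate 1 and 1.14 (1.10 to 1.19) in replicate 2. Without HIST1H1C, the member with the most reads, the sums were 40.1 (38.7 to 41.6), 45.2 (43.6 to 46.9) and 40.3 (38.8 to 41.9) RPM. The intervals of replicate 1 and WT then overlapped, so the low sum of replicate 1 rests on that gene. In these bulk samples, fewer cells in S phase and less histone RNA per cell cannot be told apart. Of the 70 rows, 27 had no read in any library (38.6%), 31 were read in every library and 12 in 1 or 2 libraries. Among 19442 protein-coding rows, 15.4% had no read in any library. A mean of at least 1 RPM was reached by 9 members, against 65.2% of the protein-coding rows. Reads were found for 36, 38 and 35 members, so the libraries saw close to the same number.

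The rows without a read were spread over all classes: 3 of 6 H1, 5 of 17 H2A, 8 of 18 H2B, 7 of 14 H3 and 4 of 15 H4. The 9 members above a mean of 1 RPM were 1 H1, 4 H2A and 4 H2B rows, with no H3 or H4. Summed H3 stood at 0.928 (0.718 to 1.18), 1.06 (0.830 to 1.35) and 0.884 (0.675 to 1.14) RPM. Summed H4 stood at 1.63 (1.35 to 1.96), 1.81 (1.499 to 2.17) and 1.56 (1.28 to 1.89) RPM. H2A summed to 24.1, 30.5 and 26.3 RPM and H2B to 13.3, 11.5 and 11.2 RPM. Each nucleosome core holds H3 and H4 in equal number with H2A and H2B, and in each library their summed RPM, a scale not corrected for length, was far below that of H2A and H2B. The 6 members listed as also making polyadenylated mRNA (HIST1H1C, HIST1H2AC, HIST1H2BC, HIST1H2BD, HIST1H2BK and HIST2H2BE) held 74.1%, 67.2% and 67.5% of all member reads. None of these 6 is an H3 or H4 gene. Their level was 43.0, 51.9 and 45.6 RPM, and that of the other 64 rows 15.01, 25.4 and 21.9 RPM.

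**Figure D1:**
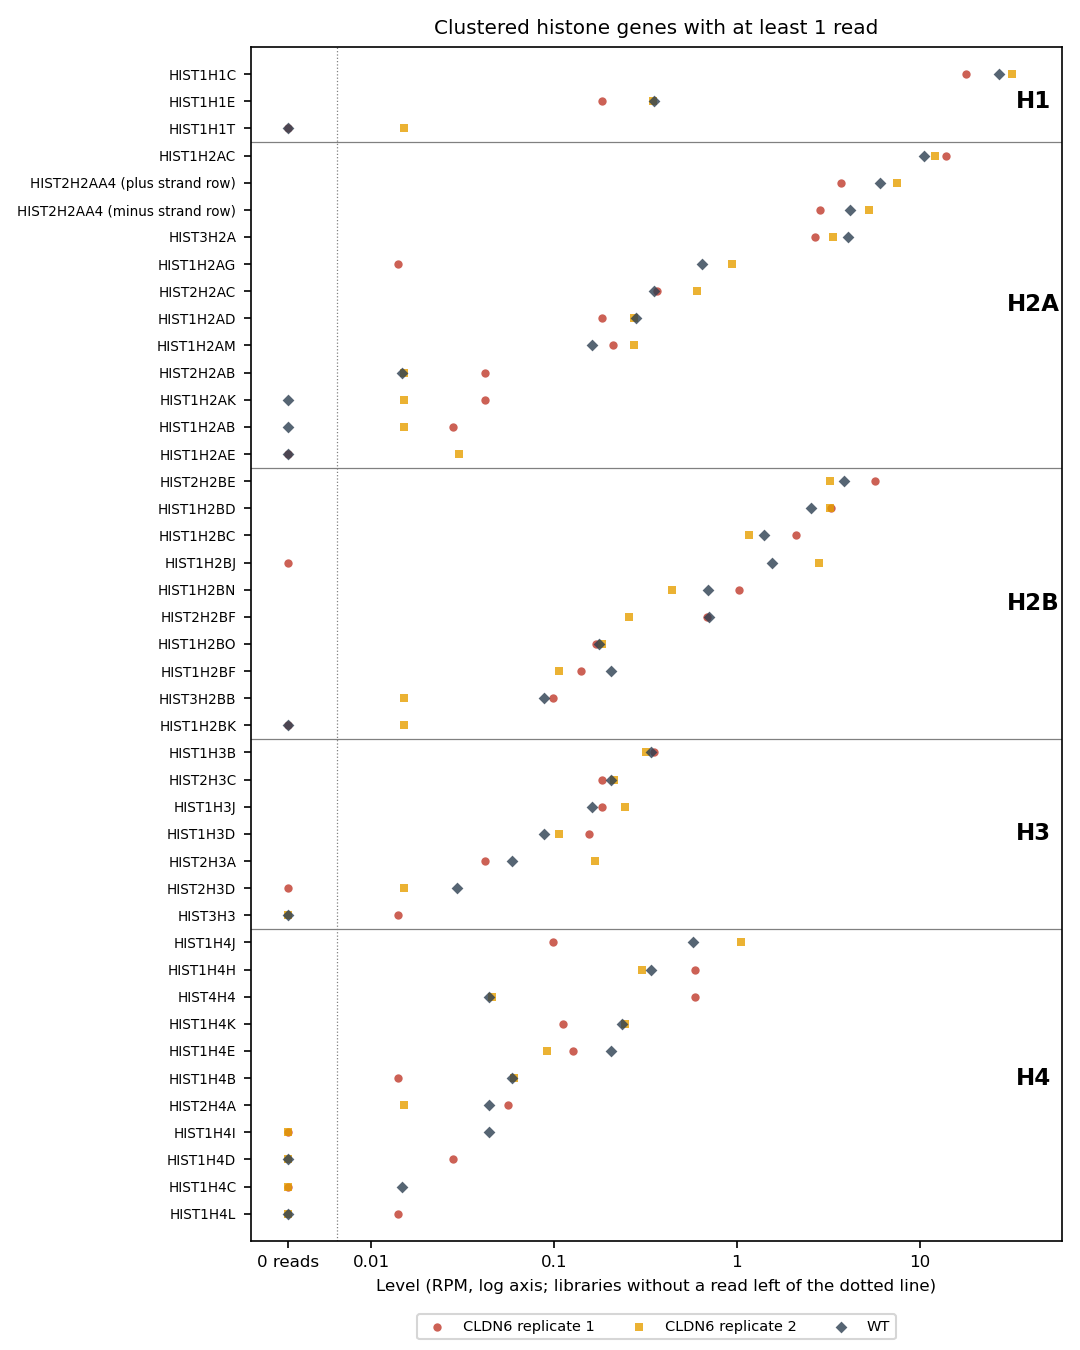
Level of each of the 43 clustered histone rows with at least 1 read, in RPM on a log axis, by class and ordered by mean. Each point is 1 library, and points left of the dotted line are libraries without a read. HIST1H1C and HIST1H2AC lie above 10 RPM in every library, while no H3 row reaches 1 RPM.

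Levels between genes can be compared only per length, here as RPM per kb of the annotated exons. The reads are those of the deposited rows, whose span can differ from these exons, so the scale is rough. HIST2H2BE has a row of 44449 bases and exons of 2194, and HIST1H4H a row of 397 and exons of 2163. HIST1H1C led with a mean of 40.1 RPM per kb. The plus and minus strand rows of HIST2H2AA4 followed at 10.5 and 7.45, then HIST1H2AC at 7.35, HIST3H2A at 3.76 and HIST1H2BD at 3.46. HIST2H2BE had 1.94 RPM per kb, HIST1H2BC 1.88, and HIST1H2BJ and HIST1H4J 1.54 each. The highest H3 gene, HIST1H3B, had 0.819. In every library HIST1H1C was above all other members on this scale. The ranges over libraries overlapped among the HIST2H2AA4 rows and HIST1H2AC, between HIST3H2A and HIST1H2BD, and among the genes from HIST2H2BE to HIST1H4J, so their order is not fixed.

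The linker histone H1 was HIST1H1C almost alone. This gene (ENSG00000187837, chromosome 6 from 26055787 to 26056428, minus strand, GRCh38) encodes H1.2 and overlaps no other row. It had 1273, 2110 and 1844 reads, or 17.9, 32.1 and 27.2 RPM. Replicate 1 was lowest and replicate 2 highest, on either side of WT. The ratio to WT was 0.659 (0.613 to 0.708) in replicate 1 and 1.18 (1.11 to 1.26) in replicate 2. HIST1H1E, which encodes H1.4, had 13, 23 and 24 reads, with a ratio of replicate 1 to WT of 0.517 (0.242 to 1.06). HIST1H1T, the testis form of H1, had 1 read in replicate 2 and none elsewhere. HIST1H1A, HIST1H1B and HIST1H1D had no read. The class thus summed to 18.1 (17.1 to 19.1), 32.5 (31.1 to 33.9) and 27.5 (26.3 to 28.8) RPM, and to 0.183, 0.365 and 0.354 RPM without HIST1H1C.

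H2A was led by HIST1H2AC and HIST2H2AA4, which moved in different ways. HIST1H2AC (ENSG00000180573, chromosome 6 from 26124145 to 26139116, plus strand) had 994, 801 and 719 reads, or 14.0, 12.2 and 10.6 RPM. It was above WT in both CLDN6 libraries, by 1.32 times (1.20 to 1.45) in replicate 1 and 1.15 times (1.04 to 1.27) in replicate 2. HIST2H2AA4 has near-identical copies on chromosome 1, at 149851061 to 149851624 on the plus strand and 149842188 to 149842736 on the minus strand. Of the 50-base windows of its transcript, 100% recur in another annotated gene. The split of reads between its rows is therefore uncertain. Its rows together stood at 6.58 (6.0003 to 7.21), 12.8 (11.9 to 13.7) and 10.2 (9.45 to 10.99) RPM, lowest in replicate 1 like HIST1H1C. The ratio to WT was 0.645 (0.573 to 0.727) in replicate 1 and 1.25 (1.13 to 1.39) in replicate 2. Both rows overlap the long row of HIST2H2BE.

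HIST3H2A (ENSG00000181218, chromosome 1 from 228456979 to 228457873, minus strand), in the small HIST3 cluster, had 190, 221 and 275 reads, or 2.67, 3.36 and 4.05 RPM. On unscaled RPM it was below WT in both CLDN6 libraries, by ratios of 0.659 (0.545 to 0.796) and 0.829 (0.691 to 0.993). HIST2H2AC had 26, 40 and 24 reads. HIST1H2AD had 13, 18 and 19 reads, and 98.0% of its windows recur in other annotated genes, so its reads are uncertain. HIST1H2AG, with 1, 62 and 44 reads, is described with its partner below. The remaining H2A rows with reads had at most 18 reads in a library.

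H2B was the class in which replicate 1 was highest in sum, an order that rests on HIST2H2BE: without it the sums were 7.53, 8.24 and 7.38 RPM, with replicate 2 highest and overlapping intervals. HIST2H2BE (ENSG00000184678, chromosome 1 from 149842204 to 149886652, minus strand) had 407, 212 and 261 reads, or 5.73, 3.22 and 3.85 RPM. Replicate 1 was 1.49 times WT (1.27 to 1.75), and the interval of replicate 2 held 1 (0.696 to 1.01). Its row spans 7 other rows, among them both HIST2H2AA4 rows, HIST2H3A and HIST2H4B, so reads of the overlaps are uncertain. HIST1H2BD (ENSG00000158373, chromosome 6 from 26158146 to 26171349, plus strand) had 234, 212 and 172 reads, or 3.29, 3.22 and 2.54 RPM, above WT by 1.30 times (1.06 to 1.59) and 1.27 times (1.04 to 1.56). HIST1H2BC (ENSG00000180596, chromosome 6 from 26114873 to 26123926, minus strand) had 150, 77 and 96 reads, or 2.11, 1.17 and 1.42 RPM. Like HIST2H2BE, it was 1.49 times WT in replicate 1 (1.15 to 1.95) and not separable from WT in replicate 2 (0.605 to 1.13).

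Of the lower H2B genes, HIST1H2BN had the same order over the libraries. It had 73, 29 and 47 reads, with 1.48 times WT in replicate 1 (1.01 to 2.19) and 0.637 in replicate 2 (0.386 to 1.03), and its row overlaps HIST1H2AK and HIST1H2AL. HIST2H2BF had 49, 17 and 48 reads, with replicate 1 and WT alike in reads and replicate 2 lowest, at 0.365 of WT (0.197 to 0.647), and its row overlaps FCGR1A. HIST3H2A, HIST2H2AC, HIST1H2AD, HIST1H2AG, HIST1H2BJ, HIST1H2BN, HIST2H2BF and HIST1H2BK were outside the rule for named genes and were chosen after their values were seen. HIST1H2BK, which is known for polyadenylated mRNA, had 0, 1 and 0 reads. Its row covers 381 bases, and 74.1% of its windows recur in other annotated genes, so reads of it may be placed elsewhere or in no row. That was not tested.

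**Figure D2:**
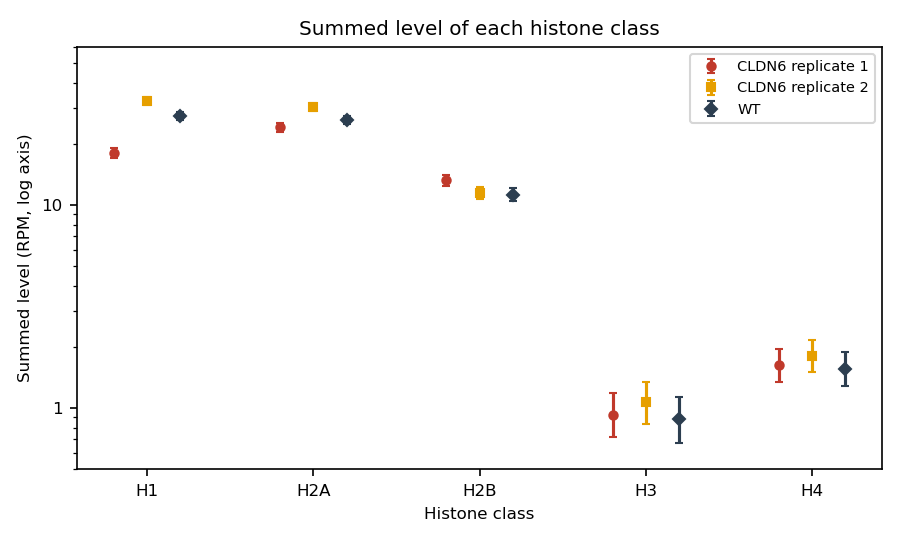
Summed level of each histone class in each library, in RPM on a log axis, with exact 95% counting intervals as bars. H1 runs from 18.1 RPM in CLDN6 replicate 1 to 32.5 RPM in replicate 2, with WT between, while the H3 and H4 intervals overlap between libraries.

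H3 and H4 genes had few reads, and on unscaled RPM their sums could not be parted between libraries at this depth. HIST1H3B had 25, 21 and 23 reads, HIST2H3C 13, 14 and 14, and HIST1H3J 13, 16 and 11. These encode the replication-coupled H3, and none differed beyond counting error. Of the windows of HIST2H3C and HIST1H3J, 100% and 40.9% recur in other annotated genes, so reads of both are uncertain. The HIST1H3J row also overlaps HIST1H2AM. The share was 80.4% to 100% in HIST2H3A, HIST2H3D, HIST1H3D, HIST1H4K, HIST2H4A and HIST2H4B. It was 0% in others, such as HIST1H3B and HIST1H4H. Whether such sharing lowered the H3 and H4 sums was not tested. The H3 sum was 1.05 times WT (0.729 to 1.51) in replicate 1 and 1.20 times (0.840 to 1.73) in replicate 2. HIST1H4H had 42, 20 and 23 reads, with 1.74 times WT (1.02 to 3.04) in replicate 1. The H4 sum was 1.04 times WT (0.796 to 1.37) and 1.16 times (0.884 to 1.52). Without its highest member HIST1H4J it was 1.53 (1.26 to 1.85), 0.760 (0.564 to 1.002) and 0.988 (0.765 to 1.25) RPM, with replicate 1 highest.

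Within the H4 sum, HIST1H4J and HIST4H4 differed far more, and in opposite directions. HIST1H4J (ENSG00000197238, chromosome 6 from 27824108 to 27824480, plus strand) had 7, 69 and 39 reads, or 0.0985, 1.05 and 0.575 RPM. It was lowest in replicate 1, at 0.171 of WT (0.0646 to 0.387), and highest in replicate 2, at 1.83 times WT (1.22 to 2.78). Of its windows, 81.2% recur in other annotated genes, so its reads are uncertain. HIST4H4 (ENSG00000197837, chromosome 12 from 14767999 to 14771131, minus strand) had 42, 3 and 3 reads, or 0.591, 0.0456 and 0.0442 RPM. Here replicate 1 was the high library, at 13.4 times WT (4.27 to 67.4), and replicate 2 and WT had the same count. Only 0.113% of its windows recur in other annotated genes. These intervals were computed for members singled out by their values, and with 1 library on each side they compare libraries and not conditions.

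A divergent pair of an H2B and an H2A gene was nearly absent from CLDN6 replicate 1. HIST1H2BJ (ENSG00000124635, chromosome 6 from 27125897 to 27132750, minus strand) had 0, 186 and 106 reads, or 0, 2.83 and 1.56 RPM. Set at the limit of 3 reads, replicate 1 was at least 37.0-fold lower than WT and at least 67.0-fold lower than replicate 2. Its partner HIST1H2AG (ENSG00000196787, chromosome 6 from 27133042 to 27135291, plus strand), whose start lies 292 bases away across the promoter printed above, had 1, 62 and 44 reads, or 0.0141, 0.943 and 0.649 RPM. Its ratio of replicate 1 to WT was 0.0217 (0.000537 to 0.127). The noncoding row RP1-86C11.7, which follows HIST1H2BJ at a distance of -9.81 kb, had 0, 24 and 13 reads. All 3 rows were thus at 0 or 1 read in replicate 1 and higher in replicate 2 than in WT. On the far side of the pair, HIST1H4I had 0, 0 and 3 reads, HIST1H2BK 0, 1 and 0, and HIST1H2AH none, so these rows could show no loss. The noncoding row RP11-239L20.6, at -131 kb, had 1, 0 and 0 reads. The nearest rows with more than 1 read in replicate 1 were LINC00240 at -142 kb and PRSS16 at 119 kb. They had 20, 21 and 10 reads and 1150, 696 and 977 reads. Neither was low in replicate 1.

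Such a loss was rare in replicate 1. By a rule chosen after these values were seen, at most 1 read in a library and at least 40 in each of the others, 3 rows of the table stood out in replicate 1. They were HIST1H2BJ, HIST1H2AG and the cadherin gene CDH12, which had 1, 126 and 233 reads. The same rule named 16 rows in replicate 2, none of them a histone, and 0 in WT. HIST1H2BJ and HIST1H2AG are not near-copies of other members, with 4.65% and 4.13% of windows shared. Whether the loss lies in the cells or in the library was not tested.

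**Figure D3:**
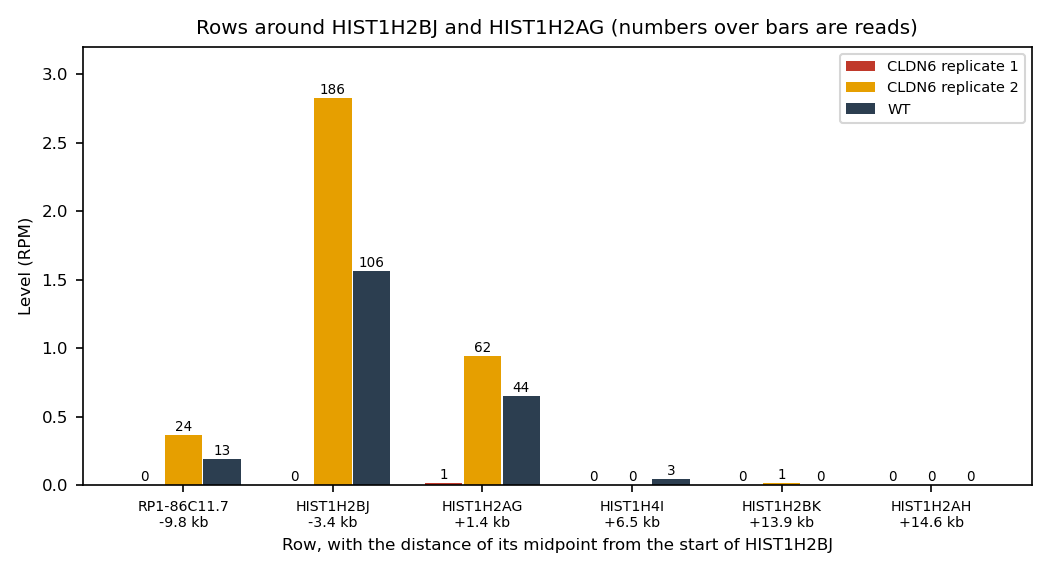
Level in RPM of the rows within 20 kb of the start of HIST1H2BJ, in order along the chromosome, with reads printed over the bars. CLDN6 replicate 1 has 0, 0 and 1 reads in RP1-86C11.7, HIST1H2BJ and HIST1H2AG, which have 13 to 186 reads in the other libraries.

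Other divergent pairs were read in replicate 1. Of 11 H2A and H2B pairs whose starts lie within 500 bases, 5 had reads of both partners in every library. HIST1H2AC and HIST1H2BC were read at 994 and 150, 801 and 77, and 719 and 96. HIST2H2AC and HIST2H2BE had 26 and 407, 40 and 212, and 24 and 261, and HIST3H2A and HIST3H2BB had 190 and 7, 221 and 1, and 275 and 6. HIST1H2AD with HIST1H2BF and HIST1H2AM with HIST1H2BO had 7 to 19 reads per gene and library. In 3 pairs neither partner was read anywhere (HIST1H2AA and HIST1H2BA, HIST1H2AI and HIST1H2BL, HIST1H2AJ and HIST1H2BM). The first of these is known from testis.

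In the comparison of CLDN6 with WT, 0 of the 9 members tested passed limma's threshold of adjusted p = 0.05, and 0 had an unadjusted p below it. Over all 14509 genes 1 was called, CLDN6 itself (0.00689%), and 4 had an unadjusted p below 0.05. With limma-voom on recovered reads no gene was called and 8 had such a p. Changes are differences of log2(RPM + 1), a scale that shrinks the changes of low genes, and all 9 members had an adjusted p of 0.99996 (limma, Benjamini-Hochberg). The change was -0.17 ± 1.10 (SE) for HIST1H1C, 0.28 ± 1.23 for HIST1H2AC, 0.27 ± 1.19 for HIST1H2BD and -0.34 ± 1.21 for HIST3H2A. The other rows ranged from -0.39 ± 1.05 for HIST1H2BJ to 0.14 ± 1.24 for HIST2H2BE. The spread behind these standard errors is that between the CLDN6 libraries, shared over all genes. A missed threshold at this error does not show that the members did not change.

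By fold alone, 0 of the 9 members stood 2-fold or more above WT in replicates 1 and 2 alike (0.0345% of all genes tested) and 0 stood as far below (0.193%). In replicate 1 alone 0 were 2-fold or more above WT (6.69%), and in replicate 2 alone 0 were above (1.77%) and 0 below (18.4%). HIST1H2BJ was the single member at least 2-fold below WT in replicate 1 (1.16% of all genes), with a change of -1.36 there and 0.58 in replicate 2. It was also the single member at least 2-fold lower in replicate 1 than in replicate 2 (7.15%). None was at least 2-fold higher in replicate 1 than in replicate 2, as 36.2% of all genes were. WT lay between the CLDN6 libraries for 6 of the 9 members (66.7%) and for 75.9% of all genes. HIST1H2AC, HIST1H2BD and HIST3H2A were the 3 that lay on the same side of WT in both, on unscaled RPM.

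The members' median ran against that of all genes. It was -0.42 in replicate 1 and 0.23 in replicate 2, where all genes tested had 0.20 and -0.35. H2A had medians of -0.44 and 0.23 over 4 rows, and H2B 0.32 and 0.05 over 4 rows. These medians rest on 9 rows that share their WT library, and the members were chosen with earlier results known, so they are a description. With the trend of GC content, transcript length and level removed from each library, the members' medians were -0.13 and 0.17. They were -0.57 and 0.58 with TMM-like scaling, and -0.72 and 0.68 with quantile normalization. The H2B medians were 0.06 and 0.25 with trends removed, 0.16 and 0.36 with TMM-like scaling and -0.005 and 0.56 with quantile normalization. Replicate 2 was then the higher for H2B, so that order depends on the scaling. H2A kept its signs under these settings. Over all genes the difference of replicate 1 from replicate 2 fell with GC content and rose with length. Genes were split by GC content into 10 bins of equal size. The median difference was 1.25 in bin 3, which holds HIST1H2AC, and -0.22 in bin 8, which holds HIST1H1C and HIST3H2A. For these genes the difference was 0.18, -0.81 and -0.25. In bin 10, of the highest GC content, which holds HIST2H2AA4, the median was -0.33, and its rows had -0.85 and -0.70.

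**Figure D4:**
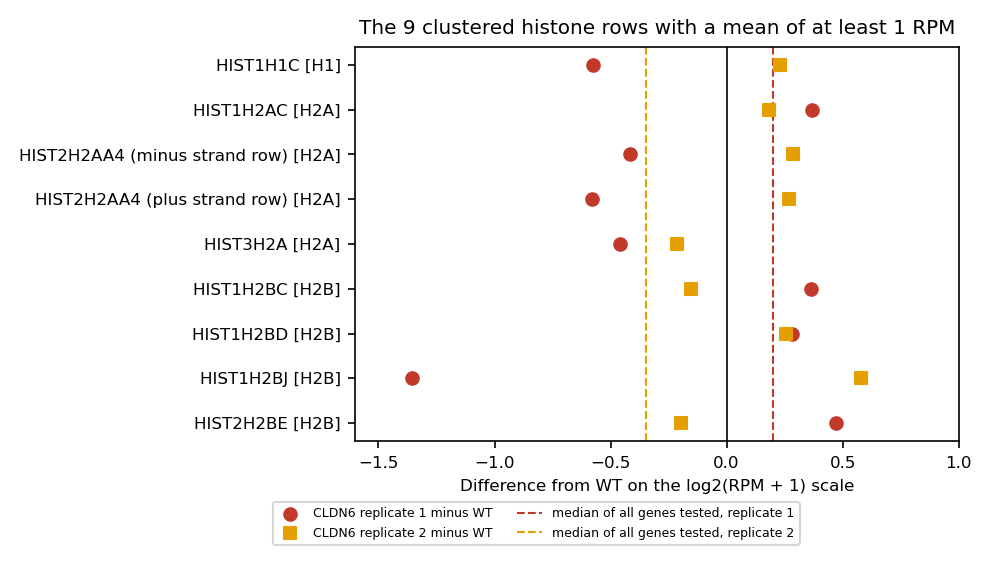
Difference of each CLDN6 library from WT on the log2(RPM + 1) scale for the 9 members tested, with the medians of all 14509 genes as dashed lines (0.20 and -0.35). HIST1H1C, HIST2H2AA4 and HIST1H2BJ are below WT in replicate 1 and above it in replicate 2, HIST2H2BE and HIST1H2BC the reverse.

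Counting intervals were also set against WT. Of the 12 rows with at least 20 reads in every library, 6 had an interval of replicate 1 to WT above 1 (HIST2H2BE, HIST1H2BC, HIST1H2AC, HIST1H2BD, HIST1H4H and HIST1H2BN), 4 below 1 (both HIST2H2AA4 rows, HIST3H2A and HIST1H1C) and 2 that held 1. For replicate 2 to WT, 6 lay above 1, 1 below (HIST3H2A) and 5 held 1. The share of all genes with such intervals was not computed, so these counts do not set the members apart from other genes. Rows differed by length, a split chosen after the values were seen. The 18 rows longer than 1000 bases, which take in introns or read-through ends, summed to 28.0, 24.97 and 22.7 RPM, 1.24 times WT (1.16 to 1.32) in replicate 1. The 52 rows of at most 1000 bases summed to 30.0, 52.3 and 44.9 RPM, 0.669 of WT (0.633 to 0.708) in replicate 1 and 1.17 times (1.11 to 1.22) in replicate 2. In every library most of the short-row sum came from HIST1H1C and HIST2H2AA4. Most of the long-row sum came from HIST1H2AC and HIST2H2BE. The split thus largely restates these genes, and sums without them were not computed. Without a read, 3 of the 18 long rows and 24 of the 52 short ones were found in no library.

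By cluster, HIST1 on chromosome 6 gave 41.0, 56.6 and 47.9 RPM over 55 rows and HIST2 on chromosome 1 gave 13.7, 17.3 and 15.5 RPM over 11. Both were lowest in replicate 1. These sums lean on HIST1H1C, at 17.9, 32.1 and 27.2 RPM, and on the HIST2H2AA4 rows, at 6.58, 12.8 and 10.2 RPM. Other members, such as HIST1H2AC and HIST2H2BE, were highest in replicate 1, so the order is not that of each cluster as a whole. HIST3, also on chromosome 1, gave 2.79, 3.38 and 4.14 RPM over 3 rows, highest in WT, and nearly all of it was HIST3H2A.

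Of the genes that make and finish histone mRNA, all 17 listed for 3' end processing and cluster transcription were tested and 0 were called, with standard errors as wide as those of the members. Over the list the median change came to 0.24 for replicate 1 and -0.54 for replicate 2, where all genes had 0.20 and -0.35. SLBP, which binds the stem-loop, stood at 44.7, 34.4 and 37.8 RPM. The U7 proteins LSM10 and LSM11 stood at 10.7, 32.1 and 17.2 and at 22.8, 13.3 and 19.8 RPM, and ZNF473, the U7-associated zinc finger protein, at 16.9, 6.05 and 14.6 RPM. NPAT, whose row overlaps ATM, stood at 26.7, 3.68 and 11.9 RPM, and CASP8AP2, which also serves histone transcription and processing, at 29.05, 3.63 and 11.3 RPM. At least 2-fold above WT in replicate 1 were 3 of the 17 (NPAT, CASP8AP2 and CCNE2, 6.69% of all genes), and at least 2-fold below WT in replicate 2 were 4 (NPAT, CASP8AP2, ZNF473 and POU2F1, 18.4%). Among the highest, SRRT had 106, 141 and 136 RPM, CDK2 116, 91.1 and 92.2, and SYMPK 80.4, 98.4 and 100.4.

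The order of NPAT over the libraries, highest in replicate 1 and lowest in replicate 2, was that of some members and not of others. Members with the same order in unscaled RPM included HIST2H2BE, HIST1H2BC, HIST1H2BN and HIST1H4H. For each of these the interval of replicate 2 to WT held 1, so a low replicate 2 is not established. HIST1H1C, HIST2H2AA4, HIST1H2BJ and HIST1H4J were highest in replicate 2. All 14 genes listed for histone mRNA decay were tested, with 0 called and medians of 0.29 and 0.02. UPF1, which starts that decay with SLBP, stood at 126, 180 and 168 RPM, LSM4 at 143, 243 and 187 and LSM2 at 48.3, 124 and 79.4. The 4 genes ZCCHC6, ZCCHC11, XRN1 and DCP2 were at least 2-fold below WT in replicate 2 (18.4% of all genes), and LSM7 was as far above (1.77%).

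**Figure D5:**
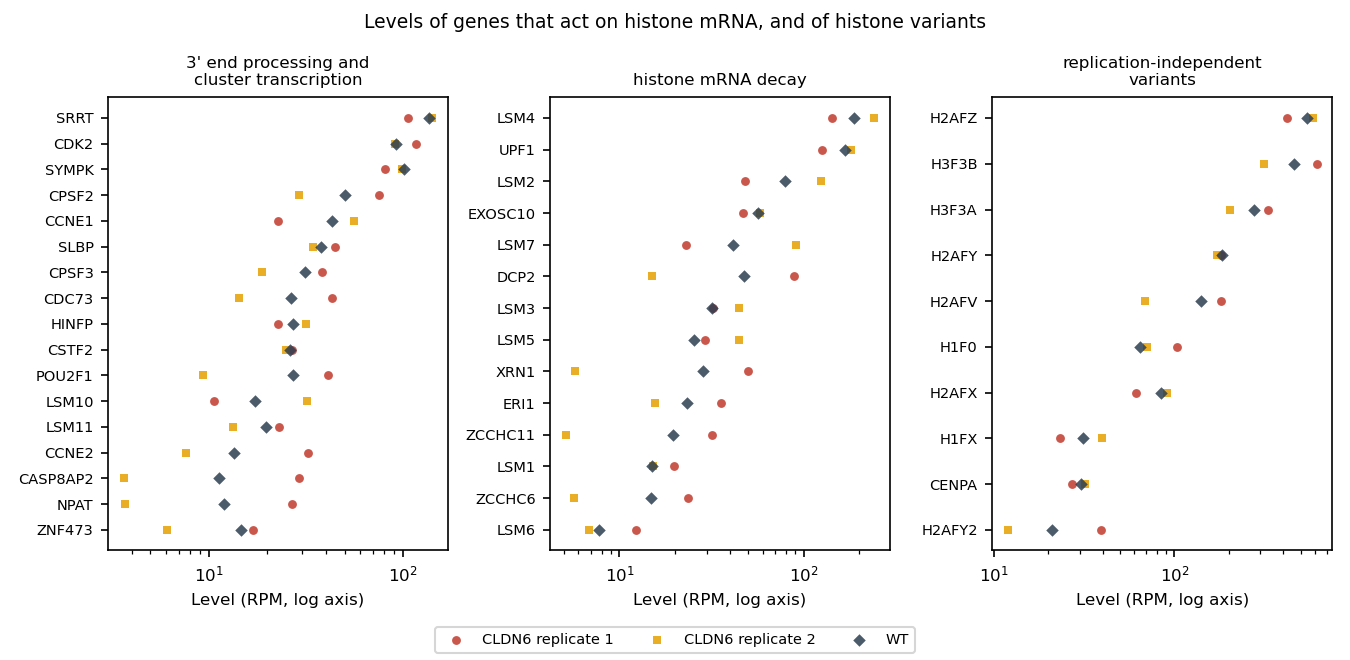
Levels in RPM on log axes of the tested genes for histone mRNA 3' end processing and cluster transcription (17), histone mRNA decay (14) and replication-independent variants (10), with 1 point per library. NPAT and CASP8AP2 lie lowest in CLDN6 replicate 2 (3.68 and 3.63 RPM) and highest in replicate 1.

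Histone variants, made outside S phase from polyadenylated mRNA, were read in every library at the named genes. Of 13 listed, 10 were tested and 0 called, with medians of 0.13 and -0.02. H3F3B and H3F3A, both encoding H3.3, stood at 614, 312 and 461 and at 332, 203 and 276 RPM. H2AFZ stood at 421, 590 and 546 RPM and H2AFX, which has a stem-loop form as well, at 61.0, 90.5 and 84.2. The linker variants H1F0 and H1FX stood at 104, 70.1 and 64.2 and at 23.4, 39.6 and 31.3 RPM. H2AFZ, H2AFX and H1FX were lowest in replicate 1 and highest in replicate 2, in the order of HIST1H1C, and H3F3A and H3F3B had the opposite order. H2AFV was at least 2-fold below WT in replicate 2, as were 18.4% of all genes.

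Chaperones that carry histones to DNA (22 of 22 tested, 0 called) had medians of 0.11 and -0.36. SSRP1, NAP1L1 and MCM2 stood at 235, 223 and 271, at 336, 147 and 220, and at 178, 275 and 248 RPM. Genes of S phase and DNA synthesis (24 of 24 tested, 0 called) had medians of 0.16 and -0.15. The only gene of that list at least 2-fold from WT was CCNE2, above it in replicate 1. Of all genes, 6.69% were as far above WT in replicate 1 and 18.4% as far below it in replicate 2. MCM7 stood at 229, 405 and 311 RPM, TK1 at 105, 228 and 184 and PCNA, the DNA polymerase clamp, at 144, 103 and 93.2. MKI67, a marker of cycling cells, stood at 492, 99.5 and 441 RPM. MCM7, MCM2 and TK1 had the order of HIST1H1C over the libraries, and PCNA and MKI67 did not.

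RNAs that lack a poly(A) tail or end in another way were mixed in level. Of 17 listed, 12 had a row, 8 of these were below a mean of 1 RPM and 4 were tested. Of all 35713 rows kept, 59.4% were below that mean. RMRP and RPPH1, known as abundant RNAs and chosen after their values were seen, stood at 0.0985, 0.198 and 0.0590 and at 0.619, 0.487 and 0.973 RPM, and RN7SL1, whose row overlaps RPS29, at 1.27, 2.49 and 1.13 RPM. RNU7-1, the U7 snRNA, was listed at 43.7, 82.1 and 53.7 RPM, but its row overlaps C12orf57 and its reads are uncertain. MALAT1 stood at 40.03, 2.01 and 17.9 RPM. The part that RNA selection had in the level of the histone members was not tested.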

How the data were processed

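RNA was sequenced from 2 CLDN6 libraries and 1 WT library of Ishikawa cells. Per the labels' protocols, TRIzol served to isolate total RNA and Illumina protocols to build the libraries. Per the submitters' processing notes, the build was GRCh38. For the aligner, counter, annotation and strand, the setting was not given in the sources used here, so overlapping rows are uncertain. The authors deposited log2 values per gene. As linear RPM, 99.98%, 99.93% and 99.97% of values were whole reads (within 0.05 of a read) of 1 step per library, and reads were recovered from it. A value of 0.9 reads marks a gene without reads and became 0. Of 35805 rows, 35713 were kept. The 92 others lacked a gene ID or repeated an ID and held no read. In addition, 28 names turned into dates were restored by gene ID. Column names carry the prefix ECC-1, found in no label, and were matched by the words CLDN6 or WT and the replicate number.

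The main test was limma 3.58.1 in R 4.3.3 with a mean-variance trend on log2(RPM + 1), for the 14509 genes whose mean reached 1 RPM, two-sided, with Benjamini-Hochberg adjustment over all of them and a threshold of 0.05. With 1 residual degree of freedom, the test takes the spread of the single WT library to equal that of the CLDN6 pair. The script was tested on simulated data. Folds of at least 2 were counted without a test. Gene types, lengths and transcripts came from GENCODE 29, in which all 70 members were found, 58 of them with the table's start and end. Coordinates are the table's, and promoter windows are RefSeq's. A window is shared where its 50 bases recur in a GENCODE 29 transcript of any other gene, member or not. Named were members with a mean of at least 5 RPM, the 3 highest of each class, up to 3 genes of each list and a fixed set of histone factors and variants. The members and the lists were chosen with earlier results of these data known. Alternatives were a pseudocount of 0.1, other filters and scalings, limma-voom, the removal of trends with GC content, length and level (splines of 5 degrees of freedom), a 1.5-fold limit and the leaving out of either CLDN6 replicate.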

Additional observations from a re-analysis of the deposited data

How the results depend on the processing

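With 1 WT library and CLDN6 libraries that differ from each other, no change of a single member could be shown. The count of genes called was 0 without a filter on low values (1303 at an unadjusted p below 0.05) and 0 with limma-voom, and no member was called under any alternative run. No paired analysis was possible because the WT library carries no replicate number and so shares none with the CLDN6 libraries. Leaving out a CLDN6 replicate leaves 1 library against 1, a value with no test. Members at least 2-fold below WT in the remaining library then numbered 0 to 1, the 1 being HIST1H2BJ without replicate 2. Members 2-fold or more apart between replicates 1 and 2 numbered 1, and 0 with a mean of at least 5 RPM, 4 with TMM-like and 4 with RLE scaling, 5 with quantile normalization and 5 with a 1.5-fold limit. Class sums without their highest member were 0.183, 0.365 and 0.354 RPM for H1, 10.1, 18.3 and 15.7 for H2A, 7.53, 8.24 and 7.38 for H2B, 0.577, 0.745 and 0.545 for H3, and 1.53, 0.760 and 0.988 for H4, where replicate 1 became highest. For H2B replicate 2 became highest. The HIST2H2AA4 minus strand row turned from -0.06 to 0.036 with TMM-like and 0.039 with RLE scaling, 0.059 with quantile normalization and 0.033 with trends removed. The cause was not tested. With each CLDN6 replicate left out, the log2 change ranged from -0.42 to 0.29 for the HIST2H2AA4 minus row, -0.58 to 0.27 for its plus row, -0.58 to 0.23 for HIST1H1C, -0.20 to 0.47 for HIST2H2BE, -0.15 to 0.36 for HIST1H2BC and -1.36 to 0.58 for HIST1H2BJ. Without a filter the members' medians were 0 in both replicates, since rows without reads enter. Coding members alone gave the same class sums, as all 70 rows are coding. limma-voom was not run for medians and fold counts. Ratios to WT, class sums and counting intervals are of unscaled RPM. The TMM-like scaling factors were 1.17 for CLDN6 replicate 1, 0.746 for CLDN6 replicate 2 and 1 for WT. Divided by them, HIST3H2A would lie above WT in replicate 2, as its ratio of 0.829 exceeds 0.746. The replicate 1 interval of HIST1H2BD, 1.06 to 1.59, spans 1.17 and would then hold 1. HIST2H2BE and HIST1H2BC had replicate 2 ratios of 0.838 and 0.828, which also exceed 0.746, though their intervals span it. For the H3 and H4 sums the replicate 2 intervals, 0.840 to 1.73 and 0.884 to 1.52, lie above 0.746. Both sums would thus be above WT in replicate 2, so their likeness between libraries depends on the scaling.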
